A study of Mus musculus with 5 samples.

Results

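The genes described here are 10 chemokines and inflammatory proteins, Cxcl12, Cxcl1, Cxcl5, Cxcl14, Ccl2, Ccl7, Il1rn, Ptgs2, Hp and Saa3, out of 18193 genes with a probe set of their own on the arrays. They were read through all 18 probe sets that the platform annotation assigns to these symbols alone, out of 45101 on each array. RNA came from primary rib chondrocytes, the cells that make cartilage, of FVB mouse embryos at gestational day 18.5, kept in culture for 2, 6, 9, 12 or 15 days with 1 array per day. All 5 cultures shared the strain, the isolation by collagenase and trypsin from whole rib cages, and a medium with ascorbic acid and beta-glycerophosphate. The labels do not say whether the dishes came from a common cell isolate or how many embryos were pooled.

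Chemokines are small secreted proteins that bind receptors on other cells and steer their movement. The CXC and CC classes are named for the spacing of cysteines near the start of the mature protein. Cxcl1 and Cxcl5 attract neutrophils through the receptor Cxcr2, Ccl2 and Ccl7 attract monocytes through Ccr2, and Cxcl12 retains blood-forming cells in bone marrow through Cxcr4. Many of these genes are induced in connective tissue cells by interleukin 1 through the transcription factor NF-kappaB, and Il1rn encodes the antagonist that blocks the interleukin 1 receptor. Hp, haptoglobin, and Saa3, a serum amyloid A protein, belong to the acute phase response. Ptgs2, also called cyclooxygenase 2, is an enzyme of the endoplasmic reticulum that starts prostaglandin synthesis, and it is not itself secreted.

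Values are linear signal intensities of probe sets, and each gene is represented by its brightest probe set. Intensities under 73.1 were raised to that floor before a difference was taken, so a difference against a day at the floor is a bound. Of the 10 genes, 8 had a mean intensity of at least 105.93, the filter that 11075 of the 18193 genes passed, and Ccl7 and Saa3 did not. Since each day has 1 array, differences between days have no replicate behind them, and "higher" or "lower" describes the arrays. Trimmed means were 500 on all 5 arrays and medians ran from 106.4 to 117.7. All 10 chondrocyte markers examined passed the filter. On day 15, 7 of them stood 2-fold or more below day 2 and 1 above it (Matn1, a matrilin, 3.50-fold). The shares of all measured genes were 11.6% lower and 16.2% higher. The summed intensity of the 10 markers was 41286 on day 15 and 123876 on day 2. In RNA from a whole dish, fewer cells of a type and less RNA per cell cannot be told apart.

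Promoter sequence is shown for the 2 genes with the widest differences, Cxcl12 and Il1rn, for Cxcl1, the textbook NF-kappaB target among the chemokines, and for Ptgs2, the one gene at least 2-fold lower on day 15. RefSeq promoter windows of build GRCm38.p6 were found for 6 of the 10 genes. Each sequence is the 250 bases before a transcription start, 5′ to 3′ on the gene's strand, with matches to 5 motifs in capitals. The motifs, searched on both strands, were GGNNTTTCC for NF-kappaB, TTGCNNAA for C/EBP factors, TGANTCA for AP-1, TTCNNNGAA for STAT factors and the GC box GGGCGG.
Cxcl12 (chr6:117168285-117168534, plus strand): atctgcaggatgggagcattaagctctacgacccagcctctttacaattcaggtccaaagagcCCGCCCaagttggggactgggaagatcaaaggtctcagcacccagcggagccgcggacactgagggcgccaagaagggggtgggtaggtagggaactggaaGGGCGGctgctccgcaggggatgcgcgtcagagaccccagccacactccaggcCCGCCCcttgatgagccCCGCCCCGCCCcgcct
Il1rn, first start (chr2:24336610-24336859, plus strand): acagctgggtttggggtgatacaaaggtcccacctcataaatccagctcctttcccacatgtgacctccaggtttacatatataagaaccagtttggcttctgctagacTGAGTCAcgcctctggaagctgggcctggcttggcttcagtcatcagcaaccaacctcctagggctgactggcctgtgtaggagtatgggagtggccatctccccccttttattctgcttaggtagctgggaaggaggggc
Il1rn, second start (chr2:24345041-24345290, plus strand): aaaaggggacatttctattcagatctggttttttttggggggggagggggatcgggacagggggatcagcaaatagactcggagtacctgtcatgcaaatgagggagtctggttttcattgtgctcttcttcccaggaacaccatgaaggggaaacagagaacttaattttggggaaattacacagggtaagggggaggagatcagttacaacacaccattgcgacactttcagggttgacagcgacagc
Cxcl1 (chr5:90890995-90891244, plus strand): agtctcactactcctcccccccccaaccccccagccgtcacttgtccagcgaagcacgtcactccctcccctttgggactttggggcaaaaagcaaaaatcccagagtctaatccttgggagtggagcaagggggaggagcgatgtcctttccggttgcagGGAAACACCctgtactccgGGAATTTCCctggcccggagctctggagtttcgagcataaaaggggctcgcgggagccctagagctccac
Ptgs2 (chr1:150099781-150100030, plus strand): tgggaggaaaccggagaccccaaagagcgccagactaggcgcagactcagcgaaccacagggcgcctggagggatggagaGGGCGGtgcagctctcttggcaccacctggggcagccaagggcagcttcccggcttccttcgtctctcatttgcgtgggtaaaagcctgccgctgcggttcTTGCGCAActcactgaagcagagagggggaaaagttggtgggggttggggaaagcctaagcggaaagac

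The Cxcl1 window held 2 NF-kappaB matches, one of them GGAATTTCC from 70 to 62 bases before the start. A match to that motif stood in 4.93% of 32851 promoter windows of the same length. The Cxcl12 window held 5 matches to the GC box, present in 32.7% of windows, of which the 2 nearest the start share 1 base, and none of the other 4 motifs. It was 64.4% G and C with 14 CpG pairs, against medians of 52.4% and 6 over all windows. Il1rn has 3 listed starts: the first had 1 AP-1 match (6.75% of windows), the second none, and the third GGTTTTTCC from 50 to 42 bases before it. Ptgs2 had 1 C/EBP match, TTGCGCAA (9.56% of windows), and 1 GC box. In windows not printed, Cxcl14 had 1 STAT match (7.02% of windows) and Saa3 1 C/EBP and 1 NF-kappaB match. These are matches of letters and say nothing of which factor bound in these cells.

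**Figure D1:**
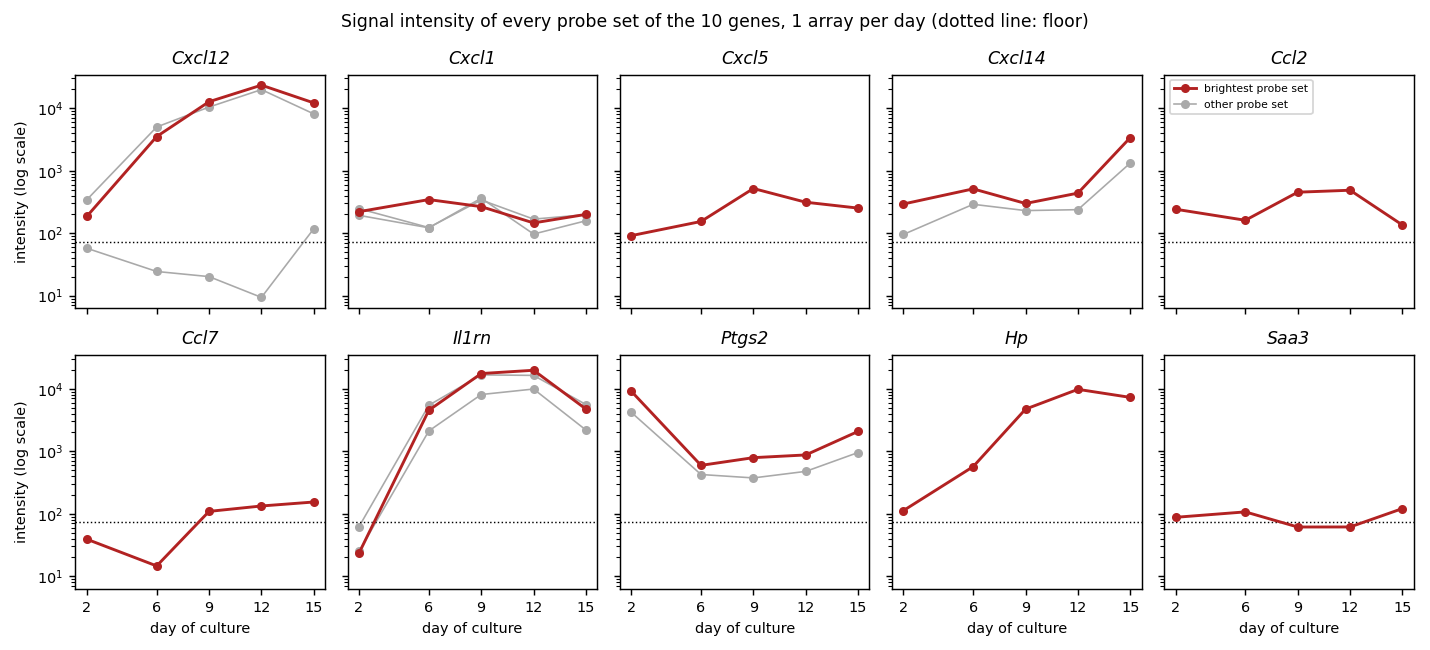
Signal intensity (vertical axis, log scale) of every probe set of the 10 genes against day of culture, 1 array per day, with the brightest probe set of each gene in red, other probe sets in grey and the floor of 73.1 dotted. Cxcl12, Il1rn and Hp have their highest points on day 12, Ptgs2 its highest on day 2 and Cxcl14 its highest on day 15.

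By the last day, 5 of the 8 measured genes stood at least 2-fold above day 2 and 1 stood at least 2-fold below it. Among all 11075 measured genes the shares were 16.2% higher and 11.6% lower. The genes did not move as a block. Cxcl12, Il1rn and Hp were far higher from day 6 or 9 on, Cxcl5 moderately higher with its top on day 9, and Cxcl14 by far highest on day 15, while Ptgs2 was lower on every later day and Cxcl1, Ccl2 and Saa3 stayed dim. The median log2 difference of the 8 genes between days 15 and 2 was 2.50, against 0.00 for all measured genes. The SD of such a difference from 1 probe set, estimated from 3013 genes with 2 probe sets on the same arrays, was 0.60, and it leaves out variation between dishes and arrays.

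**Figure D2:**
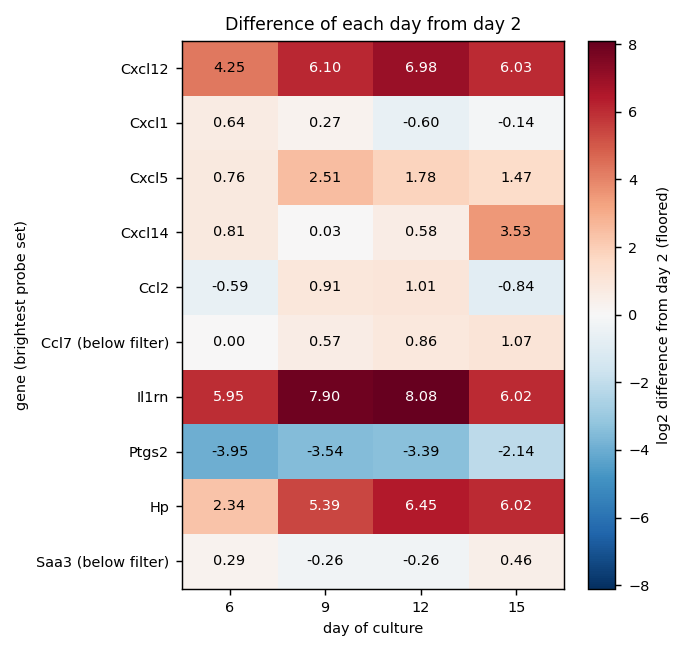
Log2 difference of days 6, 9, 12 and 15 from day 2 (columns) for the brightest probe set of each of the 10 genes (rows), after the floor, with higher values in red and lower in blue. Il1rn reaches 8.08 and Cxcl12 6.98 on day 12, Ptgs2 lies between -3.95 and -2.14, and Ccl7 and Saa3 were below the intensity filter.

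Cxcl12 is the chemokine of the bone marrow niche, made there by stromal cells around vessels. Its brightest probe set, 1448823_at, read 186 on day 2, 3518 on day 6, 12703 on day 9, 23390 on day 12 and 12153 on day 15. Every later day was thus far above day 2, and day 12 was the highest. The fold over day 2 was 19.0 on day 6, 126 on day 12 and 65.5 on day 15, which placed Cxcl12 15th from the top of 11075 genes on day 15 by this probe set. Another probe set, 1417574_at, gave 343, 5003, 10436, 19845 and 8106 in order of day, 23.6-fold higher on day 15 than on day 2. The remaining one, 1439084_at, was under the floor on days 2 to 12 and read 118 on day 15, so it did not show the course of the other probe sets. With the mean over all 3, the log2 difference between days 15 and 2 was 3.76, against 6.03 by the brightest.

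Receptors for Cxcl12 gave a different picture. Cxcr4, the signalling receptor, read 25.2, 100, 2.42, 15.9 and 16.8 and lay under the intensity filter. Ackr3, the receptor that binds Cxcl12 and clears it, was bright throughout, at 4832, 5160, 1889, 2021 and 3271. Day 9 was the lowest, and day 15 was 1.48-fold below day 2, short of 2-fold.

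Il1rn, the interleukin 1 receptor antagonist, was under the floor on day 2 and high on every later day. Probe set 1423017_a_at read 23.4 on day 2, 4524 on day 6, 17499 on day 9, 19749 on day 12 and 4729 on day 15. That makes it at least 61.9-fold higher on day 6 than on day 2, at least 239-fold on day 9, and at least 64.7-fold on day 15. The size of these differences is set by the floor, and the log2 difference between days 15 and 2 was 7.66 with a floor at the 20th percentile and 4.71 with one at the 60th, against 6.02 as reported. Between days 12 and 15 it was 4.18-fold lower on day 15, and the level there was close to that of day 6. The other probe sets were also high on days 9 and 12: 1451798_at had 62.0 on day 2, 16655 on day 9, 16348 on day 12 and 5581 on day 15, so its top was day 9, and 1425663_at reached 9893 on day 12 after a day 2 value under the floor.

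The cytokine that Il1rn opposes was dim. Il1b, interleukin 1 beta, read 132, 143, 99.4, 207 and 112 in order of day, and Il1a, interleukin 1 alpha, stayed at or under 10.2 on all 5 days. Il1r1, the signalling receptor, was 2.62-fold higher on day 15, at 1252 against 478 on day 2. Myd88, the adaptor of that receptor, was 2.85-fold higher, Irak3, which damps its signal, 2.64-fold higher, and Il1rl2, the interleukin 36 receptor, at least 4.35-fold higher. Over the interleukin 1 family and receptor list, 5 of 11 measured genes had gained 2-fold or more by day 15 and 1 had lost as much, with a median log2 difference of 0.51. The shares of all measured genes were 16.2% and 11.6%. The count of 5 was 3 with the mean over probe sets and 2 with day 15 against day 6. It was 1 with days 12 and 15 against days 2 and 6, and 6 with day 12 against day 2.

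Hp, the plasma protein that binds free haemoglobin, is best known from liver and is also made by fat cells. Its single probe set, 1448881_at, read 112 on day 2, 567 on day 6, 4717 on day 9, 9781 on day 12 and 7268 on day 15. No day was as low as day 2, and the largest step was from day 6 to day 9. Hp was 64.8-fold higher on day 15 than on day 2, and 8.31-fold higher on day 9 than on day 6. Liver markers were dim: 6 of 6 hepatocyte genes with a probe set had a mean below the filter, and their summed intensity ran from 171 to 463. The highest single values were 228 for Apob on day 6 and 214 for Hnf4a on day 2. The albumin gene Alb read 55.5 or less on every day.

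These 3 genes and Ccl2 were highest on day 12, 4 of the 8 measured, against 15.5% of all measured genes. Day 12 was only 1.13-fold over day 9 for Il1rn and 1.08-fold for Ccl2, log2 differences of 0.17 and 0.11. Both are small beside the SD of 0.60 given above. For Hp, day 15 was close to day 12, with a log2 difference of -0.43, also under that SD. The top day of Il1rn, Ccl2 and Hp was thus not resolved. Fat cell markers also read highest on day 12, in 9 of 9 measured adipocyte genes. Day 9 was close for Cebpa, 1883 against 1943 on day 12, for Pparg, 2567 against 2873, and for Lpl, 30061 against 37933. For Fabp4, day 12 was 1.46-fold over day 15, so these top days were not resolved either. The summed intensity of the 10 adipocyte genes with a probe set was 4171, 12864, 60332, 105286 and 54905 in order of day. Adipoq, the fat cell hormone adiponectin, read 79.3 on day 2, 5191 on day 9 and 16395 on day 12. Marrow stroma markers were divided, with 6 of 10 measured genes highest on day 12. On day 15, 5 were at least 2-fold above day 2 and 1 below it, against 16.2% and 11.6% of all measured genes. The lower one was Nes, which encodes the filament protein nestin, at 604 on day 15 against 1252 on day 2. Vcam1, an adhesion protein, read 2022 on day 15 against 101 on day 2, and Angpt1, an endothelial growth factor, was at least 26.1-fold higher on day 15. Grem1, an antagonist of bone morphogenetic proteins, was highest on day 15, at 10299. Lepr, the leptin receptor that marks such stroma in mice, read between 77 and 171. The part of fat cells or stromal cells in the levels of Cxcl12, Il1rn and Hp was not tested.

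Cxcl5, a neutrophil chemokine with a single probe set, 1419728_at, was dim at first. It read 91.3 on day 2, 154 on day 6, 519 on day 9, 313 on day 12 and 252 on day 15. Day 9 stood above all other days, 5.69-fold over day 2, and day 15 was 2.77-fold over day 2. Since day 2 lies close to the floor, the fold depends on how dim values are handled, and it fell under 2-fold with the floor raised to 180.5 or with 73.1 added to every intensity.

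Cxcl1, the other neutrophil chemokine, had 3 probe sets that disagreed on its course. The brightest, 1457644_s_at, read 221, 345, 266, 146 and 200 in order of day, highest on day 6. By contrast 1419209_at read 193, 122, 363, 96.9 and 158, and 1441855_x_at 247, 123, 340, 168 and 198, both highest on day 9 and low on day 6. The suffixes _s_at and _x_at mark probe sets on this platform that may bind related transcripts. At day 15 all 3 were within 2-fold of day 2.

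Cxcl1 and Cxcl5 lie in a chemokine cluster with 4 protein-coding genes between them in the GRCm38.p6 annotation. Pf4 and Ppbp, platelet chemokines of that stretch, were at the floor on day 15 and at least 4.30-fold and 4.34-fold lower than on day 2. Cxcl3 and Cxcl15, the other two, lay under the filter, with no value above 156. So the 4 genes between them were at the floor or under the filter on day 15. Cxcr2, the shared receptor of Cxcl1 and Cxcl5, was under the floor on all 5 arrays.

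Cxcl14, a chemokine made by many epithelia and by fat and connective tissue, was high on the last day. Probe set 1418457_at read 293 on day 2, 512 on day 6, 299 on day 9, 438 on day 12 and 3392 on day 15. The first 4 days lay within 1.75-fold of day 2, and day 15 was 11.6-fold over it and 7.74-fold over day 12. The other probe set, 1418456_a_at, read 95.4, 290, 230, 238 and 1328, so its last day was 13.9-fold over day 2 and 5.58-fold over day 12. On day 12 the log2 difference from day 2 was 0.58 by the brightest probe set and 1.32 by the other, which was also 3.04-fold over day 2 on day 6 and 2.41-fold on day 9.

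Ccl2 and Ccl7, monocyte chemokines, are direct neighbours in the genome. Ccl2 read 242 on day 2, 161 on day 6, 453 on day 9, 487 on day 12 and 135 on day 15 by its only probe set, 1420380_at. Days 9 and 12 were high and day 15 the lowest, 3.62-fold under day 12 and 1.79-fold under day 2. Ccl7 was under the floor on days 2 and 6 and read 109, 133 and 154 on days 9, 12 and 15 by its only probe set, 1421228_at, at least 2.10-fold higher on day 15. Unlike Ccl2, it was not lower on day 15 than on day 12, and at this intensity close to the floor the difference between them has no measured error. Their receptor Ccr2 read at most 126.

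Blood cell markers were dim. Of 20 leukocyte markers with a probe set, 14 lay under the filter and 5 were at the floor on every day, and the summed intensity ran from 1420 on day 9 to 2021 on day 2. Of the 6 measured, 2 were highest on day 12, as Ccl2 was by a narrow margin over day 9. Lyz2, a lysozyme of myeloid cells, read 157, 192, 183, 294 and 128, and Camp, an antimicrobial peptide of neutrophils, 169, 24.3, 177, 251 and 141. Cd68, a macrophage marker, read 252, 141, 179, 228 and 362, highest on day 15 as Ccl7 was. The others measured had other top days: Csf1r and Mrc1 day 2, at 380 and 210, and Adgre1 day 6, at 172, with 167 on day 12. The part of blood cells in the levels of Ccl2 and Ccl7 was not tested. Ptprc, which encodes the pan-leukocyte antigen CD45, read 45.3 or less from day 6 on, against 118 on day 2. Of 10 endothelial markers, 9 lay under the filter.

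Saa3, the acute phase protein made outside the liver in mice, was dim on every day. It read 87.6, 107, 61.3, 61.4 and 121 in order of day by its only probe set, 1450826_a_at, with days 9 and 12 under the floor. Day 15 was 1.38-fold over day 2. In the rest of the acute phase list 6 of 12 measured genes had gained 2-fold or more by day 15 and 2 had lost as much, with a median log2 difference of 0.61. The shares of all measured genes were 16.2% and 11.6%. Steap4, a metalloreductase, read 25.5 on day 2, 4874 on day 9, 5088 on day 12 and 1428 on day 15, at least 19.5-fold higher at the end. Lbp, the lipopolysaccharide binding protein, was at least 14.8-fold higher, and Lrg1, a secreted leucine-rich glycoprotein, at least 4.86-fold. The protease inhibitor A2m was 4.85-fold lower, at 272 against 1317 on day 2.

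Ptgs2 was the 1 gene at least 2-fold lower on day 15. Probe set 1417262_at read 9162 on day 2, 594 on day 6, 789 on day 9, 872 on day 12 and 2078 on day 15. Day 2 was the highest by far, the middle days were level, and day 15 stood between them. Relative to day 2, Ptgs2 was 15.4-fold lower on day 6 and 4.41-fold lower on day 15, and day 15 was 2.38-fold above day 12. Probe set 1417263_at gave 4207, 424, 374, 476 and 954, also 4.41-fold lower on day 15. Against day 6 in place of day 2, the log2 difference on day 15 was 1.81, the opposite sign, so the direction rests on the day 2 array.

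Around Ptgs2, the prostanoid pathway held genes with differences both ways. In that list 4 of 12 measured genes had gained 2-fold or more by day 15 and 3 had lost as much, with a median log2 difference of 0.49. The shares of all measured genes were 16.2% and 11.6%. The lower ones were Pla2g5, at least 3.48-fold, Abcc4, 2.56-fold, and Ptges2, 2.01-fold. Ptgis, the synthase of prostacyclin, read 68.2, 830, 1557, 1988 and 4146 in order of day, at least 56.7-fold higher on day 15. Hpgd, which breaks prostaglandins down, was 25.1-fold higher on day 15 and highest on day 12, with 6213. The receptors Ptgfr and Ptger4, for prostaglandins F2alpha and E2, were at least 17.2-fold and 4.67-fold higher. Ptges, the E2 synthase that often works with Ptgs2, had 926 on day 15 and 514 on day 2, under 2-fold.

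**Figure D3:**
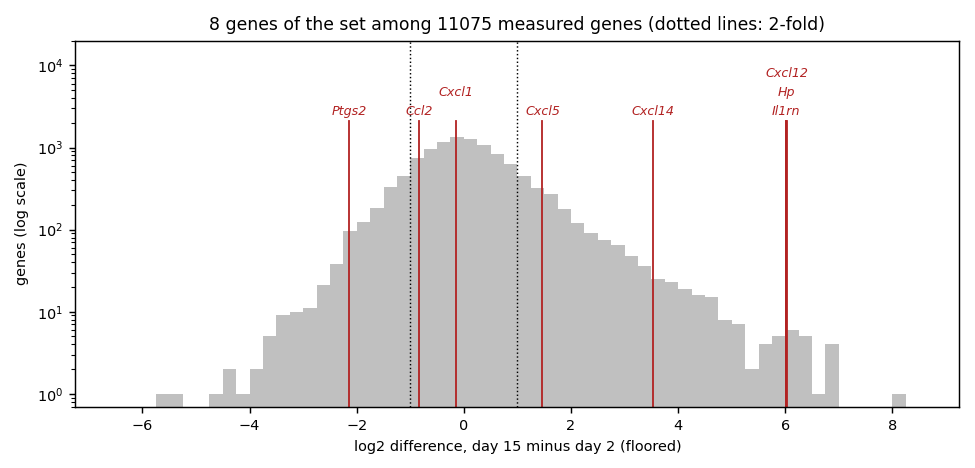
Number of genes (vertical axis, log scale) by log2 difference between days 15 and 2 (horizontal axis, day 15 minus day 2) for 11075 measured genes, with the 8 measured genes of the set as red lines and 2-fold as dotted lines. Cxcl12, Hp and Il1rn lie together at 6.03, 6.02 and 6.02 in the far right tail, and Ptgs2 at -2.14 on the left.

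Steps between days showed when the genes parted. At the first step, day 6 against day 2, 3 of 8 were at least 2-fold higher (Cxcl12, Il1rn and Hp) and 1 lower (Ptgs2), against 10.2% and 5.70% of all measured genes. At day 9 against day 6, 5 were higher (Cxcl12, Cxcl5, Ccl2, Il1rn and Hp) and 0 lower, against 5.87% and 4.06%. From day 9 to day 12 only Hp passed 2-fold, upward, against 1.72% of genes higher and 1.51% lower. From day 12 to day 15, Cxcl14 and Ptgs2 were higher on day 15 and Ccl2 and Il1rn lower, against 4.23% and 3.92%. The comparisons share arrays and are not independent of each other. Against day 2, 4 of 8 were higher and 1 lower on day 9, with 15.1% and 10.3% of all genes, and 5 and 1 on day 12, with 16.1% and 11.4%.

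A straight line on day through each gene's 5 log2 intensities, tested by limma over all measured genes, called 0 of the 8 genes at an adjusted p under 0.05, as against 0.0542% of all genes. At an unadjusted p under 0.05 by limma, 4 of 8 had a line of positive slope (Cxcl12, Cxcl14, Il1rn and Hp), against 14.4% of all genes, and 0 one of negative slope, against 12.7%. The slope of Hp was 0.51 ± 0.08 log2 units per day (SE, limma adjusted p = 0.0734) and that of Cxcl12 0.48 ± 0.12 (limma adjusted p = 0.0894). Il1rn had 0.47 ± 0.19 (limma adjusted p = 0.18) and Cxcl14 0.21 ± 0.08 (limma adjusted p = 0.184), and neither course was straight. Their unadjusted limma p-values, 0.0472 and 0.0496, lay just under 0.05, and each slope leaned on 1 array. The slope of Il1rn was 0.012 with the day 2 array left out, and that of Cxcl14 0.033 with the day 15 array left out. For Ptgs2 the slope was -0.13 ± 0.12 (limma adjusted p = 0.509). The remaining 3 genes had limma adjusted p-values of 0.24 (Cxcl5), 0.495 (Cxcl1) and 0.991 (Ccl2).

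**Figure D4:**
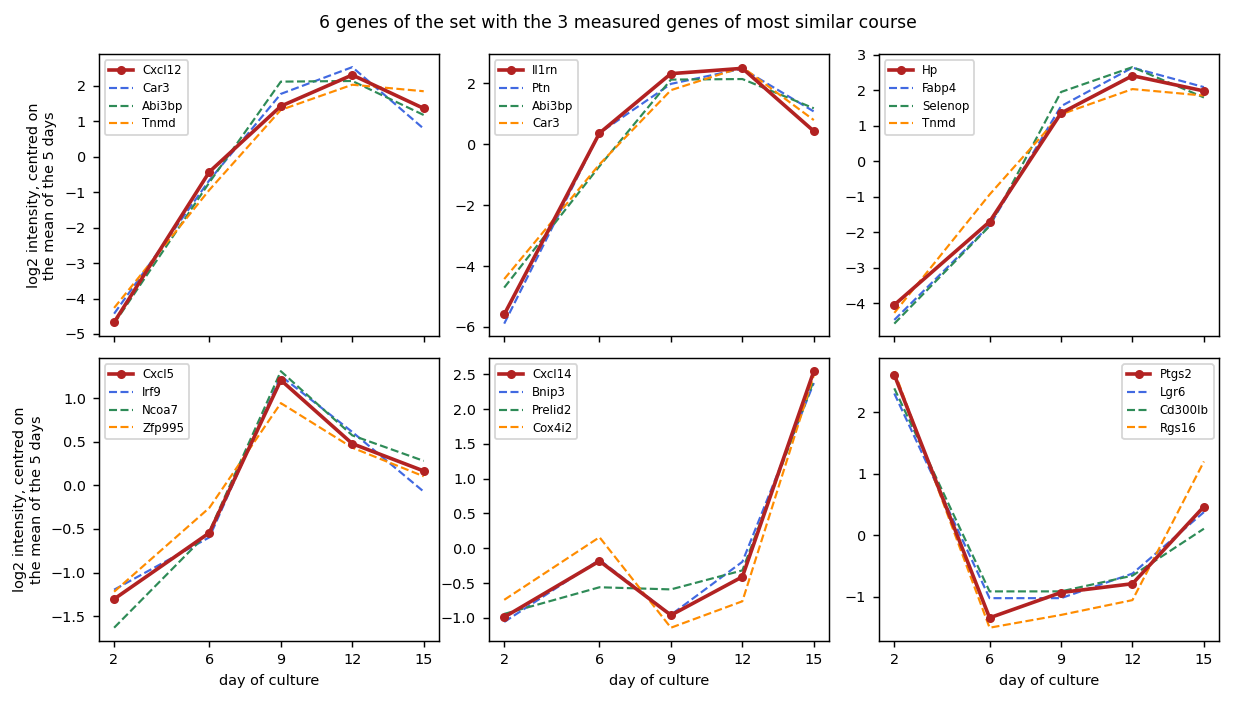
Log2 intensity, after the floor, of 6 genes of the set (red) and of the 3 measured genes with the most similar course (dashed) on days 2, 6, 9, 12 and 15, each centred on its own mean over the 5 arrays. Il1rn is followed most closely by Ptn, Hp by Fabp4, Cxcl5 by Irf9, Cxcl14 by Bnip3 and Ptgs2 by Lgr6.

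Similar courses were ranked by the root mean square difference between floored log2 profiles over the 5 arrays, after each profile was centred on its mean. Where a gene was under the floor, the floor sets part of the closeness, as for Il1rn, Abi3bp and Selenop on day 2. For Hp the nearest of all measured genes was Fabp4, the fatty acid binding protein of fat cells, at 0.24, followed by Selenop, a selenium carrier, and Tnmd, tenomodulin. Fabp4 read 267, 1680, 17222, 36538 and 24981 in order of day, and 4 genes in all lay within 0.5 of Hp. Of its 3 other probe sets, 1 had a like log2 difference on day 15, 6.02, and the dim remaining ones 0.58 and 0.96. For Il1rn the nearest was Ptn, a heparin-binding growth factor, at 0.35, the only gene within 0.5. Ptn read 76.3 on day 2, 25191 on day 12 and 9521 on day 15, and 1 of its probe sets differed, with a log2 difference of 2.18 on day 12 and -0.02 on day 15. For Cxcl12 the nearest were Car3, a carbonic anhydrase, at 0.35, Abi3bp, a matrix protein, at 0.36 and Tnmd at 0.39. The other probe sets of Car3 had log2 differences between 0.08 and 3.18 on day 15, against 5.22 by the brightest.

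Later and smaller courses had other companions. Cxcl14 was most like Bnip3, a mitochondrial protein of autophagy, at 0.13, with Prelid2 and Cox4i2, a cytochrome c oxidase subunit, at 0.25 and 0.26. Bnip3 read 2046, 3797, 2196, 3724 and 22077, with its own jump on the last day. Cxcl5 was most like Irf9, a transcription factor of the interferon response, at 0.13, and then Ncoa7 and Zfp995. Ptgs2 was most like Lgr6, a receptor for R-spondins, at 0.22, though the other Lgr6 probe set had log2 differences of only -0.67 on day 12 and -0.12 on day 15. Next came Cd300lb at 0.28 and Rgs16, which shortens G protein signals, at 0.39. Lgr6 and Cd300lb were under the floor on days 6 and 9, and Rgs16 on day 6, so their likeness to Ptgs2 is partly set by the floor. Ccl2 was nearest to Fyb at 0.13, and Cxcl1 to Cep162 at 0.09, but 168 genes lay within 0.5 of Ccl2, 533 of Cxcl5 and 5033 of Cxcl1. Fyb was under the floor on days 6 and 15. Within the set, Hp and Cxcl12 differed by 0.70, Cxcl12 and Il1rn by 0.80 and Hp and Il1rn by 1.41.

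**Figure D5:**
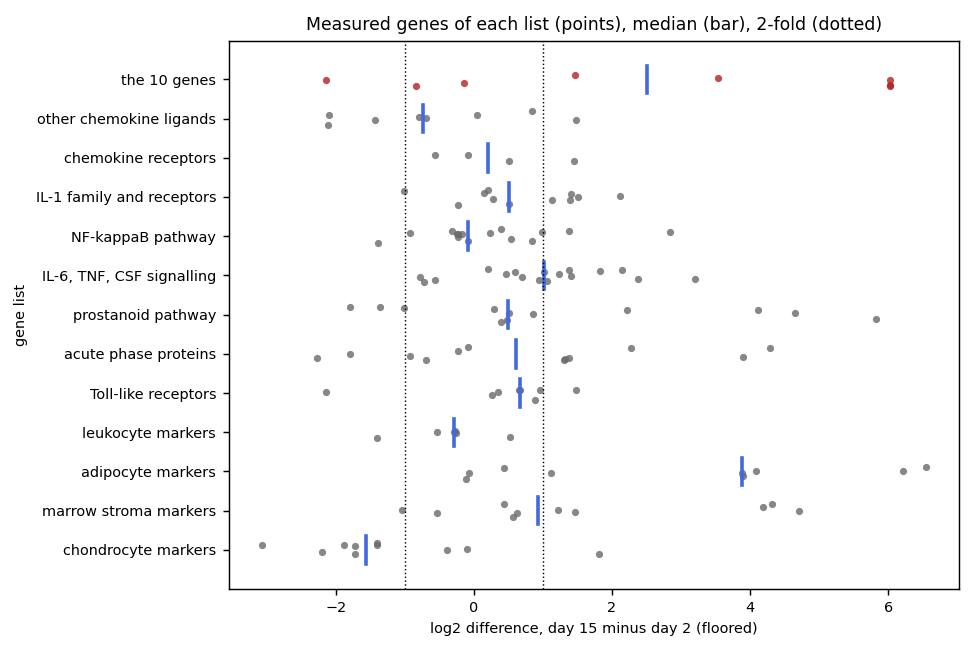
Log2 difference between days 15 and 2 (horizontal axis, day 15 minus day 2) for each measured gene (points) of the set and of 12 other gene lists (rows), with the list median as a blue bar and 2-fold as dotted lines. The set has a median of 2.50, the other chemokine ligands -0.75, the NF-kappaB pathway -0.08 and the adipocyte markers 3.88.

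Most other chemokine ligands were dim. Of 29 other ligands with a probe set 21 lay under the filter. Among the 8 measured 1 had gained 2-fold or more by day 15 and 3 had lost as much, with a median log2 difference of -0.75. The shares of all measured genes were 16.2% and 11.6%. Ccl9, a CC chemokine of rodents, read 3675, 4488, 4792, 6807 and 1362, so that day 15 was 2.70-fold below day 2 after a high on day 12. Cx3cl1, which exists as a membrane-bound chemokine, was the 1 higher ligand, at 2.79-fold. That count of 1 was 0 with the mean over probe sets, 0 with day 15 against day 6 and 2 with day 12 against day 2. Of 21 chemokine receptors with a probe set 4 passed the filter, and Ackr4, a scavenger of CC chemokines, was the 1 higher member, at 2.73-fold, with 0 lower.

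In the NF-kappaB pathway 2 of 15 measured genes were at least 2-fold higher on day 15 and 1 lower, close to the 16.2% and 11.6% of all measured genes, with a median log2 difference of -0.08. Nfkbia, the inhibitor that NF-kappaB itself induces, read 3737, 4254, 5201, 5756 and 3541. Icam1, an adhesion protein, was at least 7.14-fold higher on day 15, Birc3, an inhibitor of apoptosis, 2.59-fold higher, and the subunit gene Nfkb2 2.62-fold lower. Nfkb2 was dim, at 258 on day 2 and 98.5 on day 15. The count of 1 lower was 0 with the floor at 180.5, with the mean over probe sets and with day 15 against day 6. It was 2 with day 12 against day 2. In the Toll-like receptor list 1 of 8 was higher and 1 lower: Ticam1, an adaptor, was 2.79-fold higher and Tlr9, a DNA sensor, at least 4.43-fold lower. Ticam1 read 89.8 on day 2, close to the floor. The count of 1 higher was 0 with the floor at 180.5 and 3 with arrays centred on the median.

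In the list of interleukin 6, tumour necrosis factor and colony stimulating factor signalling, 9 of 17 measured genes were up 2-fold or more by day 15 and 0 down as far, against 16.2% and 11.6% of all measured genes, with a median log2 difference of 1.02. The count of 9 was 4 with the mean over probe sets, 4 with day 15 against day 6 and 3 with days 12 and 15 against days 2 and 6. Lifr, the leukaemia inhibitory factor receptor, read 225, 705, 1550, 2156 and 2065, 9.19-fold higher on day 15 than on day 2. Socs3, a feedback inhibitor, was 5.17-fold higher, Ctf1, a ligand of that receptor family, at least 4.44-fold, and Cebpd, a transcription factor of the acute phase response, 3.56-fold. Over 8 pathway lists 0 genes had a limma adjusted p under 0.05 for a straight line on day. At an unadjusted p under 0.05 by limma 24 had a positive and 7 a negative slope, against 14.4% and 12.7% of all measured genes. The 8 lists were those of other chemokine ligands, chemokine receptors, the interleukin 1 family, the NF-kappaB pathway, interleukin 6 and the other cytokines named above, the prostanoid pathway, acute phase proteins and Toll-like receptors. In that order they held 8, 4, 11, 15, 17, 12, 12 and 8 measured genes.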

How the data were processed

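Per the submitters' processing notes MAS5, of no stated version, produced the deposited signal intensities, which are linear and come from 5 single-colour arrays. All 5 had a mean of 500 once 2% was trimmed from either end, so the authors' values were already brought to 1 overall level, and a change common to most RNAs is invisible in them. Detection calls were not used.

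Names came from the platform annotation, updated through an NCBI RefSeq table of GRCm38.p6, which placed 34741 of 34945 single-symbol probe sets under a current symbol. Promoters were RefSeq's for that build. Intensities under the 40th percentile, 73.1, were raised to it before log2. Each gene took the probe set of highest mean intensity, and was kept if that mean reached 105.93, the median over probe sets.

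Differences between days were counted at 2-fold with no test. The linear trend on day came from lmFit and eBayes of limma 3.58.1 under R 4.3.3 (two-sided tests, 3 residual and 2.83 prior degrees of freedom, and Benjamini-Hochberg adjustment over all 11075 measured genes) and was tested on simulated data. Python 3.11.15, pandas 2.3.3, numpy 2.4.6 and matplotlib 3.10.9 served for the rest. Precision is limited by there being 5 arrays.

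The 10 genes, the 8 pathway lists, the 6 marker lists and the motifs were chosen with earlier results of these data known. The NF-kappaB motif was shortened by 1 leading G after matches of the longer form had been seen. The longer form had the same matches in Cxcl1 and Il1rn and none in Saa3. From each list the rule named the 4 measured genes with the largest difference between days 15 and 2, and from the likeness ranking 3 genes per member. A clause of that rule on lone genes was unclear and not used. Genes outside it were named after their values were seen. Examples are receptors of a named ligand, neighbours of Cxcl1, Il1a, Il1b, Nfkbia, Ptges, Lepr, Nes, Alb, Apob, Hnf4a, Camp and Ptprc. Others are Csf1r, Pla2g5, Abcc4, Ptges2, Cebpa, Pparg and Lpl.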

Additional observations from a re-analysis of the deposited data

How the results depend on the processing

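The count of the 8 genes that were 2-fold or more above day 2 on day 15, 5 as reported, was 4 or 5 of 8 under quantile normalization, median centring, a pseudocount, a floor at the 20th or the 60th percentile, the mean over probe sets and 3 other choices of days. It was 6 of 10 with no filter, which adds Ccl7 and Saa3, and 4 of 5 with a filter at the 70th percentile. The count 2-fold or more below, 1 as reported, was 0 with days 12 and 15 averaged against days 2 and 6 and 0 with day 15 against day 6, because Ptgs2 was high on day 2 alone. Against day 6 its log2 difference was 1.81, reversed. Its slope with each array left out in turn ran from -0.317 without day 15 to 0.185 without day 2 (limma adjusted p = 0.298), also reversed. The slope of Ccl2, near 0 as reported, turned positive with median centring (0.011), the 60th percentile floor (0.019), and the pseudocount (0.003), and with each array left out in turn ran from -0.042 without day 12 to 0.13 without day 15. With the filter at the 70th percentile, which tests fewer genes, 1 gene had a linear trend at a limma adjusted p under 0.05, Hp at 0.0485, and 0 genes had one as reported and under the other alternatives, including each array left out in turn (0 in every case). Over those alternatives the limma adjusted p of Hp ran from 0.0485 to 0.341 and that of Cxcl12 from 0.0686 to 0.449. The mean over probe sets lowered the log2 difference of Cxcl12 to 3.76. Of 308 counts over the other lists, 67 moved by over 1.5 times or changed to or from 0. No paired analysis was possible because there was 1 array per day. Intensities near the floor limit Cxcl1, Cxcl5, Ccl2, Ccl7 and Saa3.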
